A study of Mus musculus with 18 samples.

Results

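Interleukin-6 family cytokines and their receptors were followed in mouse knee cartilage after rupture of the anterior cruciate ligament (ACL). The 9 genes described are the ligand genes Il6, Il11, Lif, Osm and Clcf1 and the receptor genes Osmr, Il11ra1, Lifr and Il6st. They were found by symbol among the 49184 genes over which the deposited transcript counts were summed, and all 9 passed the filter on low counts. Total RNA of femoral condyle cartilage was sequenced in 18 libraries of male C57Bl/6J mice aged 12 weeks. The labels name the strain and no other allele. The ACL was ruptured under isoflurane by a single 12 N load on the right knee, and mice received buprenorphine for pain. There were 6 libraries of naïve mice, whose label carries day 7, and 3 libraries each of injured (right) and contralateral (left) knees at day 1 and at day 7. Each library was a pool: 2 mice per library at day 1 and 4 at day 7 by the scheme of the study (4 throughout in the series text). The 6 naïve libraries were pooled from 6 mice with 2 knees each, and left and right knees were pooled separately by the scheme, so that each naïve pool has its mice in common with another one. The 6 naïve libraries thus hold fewer independent sets of mice than their number, and the SDs and tests, which count 6, do not allow for this. Which pools belong together is not labelled. Estimated counts per library ranged from 16074762 to 41794005.

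The ligands described here signal through receptor complexes that hold the shared chain glycoprotein 130, the product of Il6st. Interleukin-6 uses the receptor encoded by Il6ra and interleukin-11 the one encoded by Il11ra1, whereas leukaemia inhibitory factor (Lif), oncostatin M (Osm) and cardiotrophin-like cytokine factor 1 (Clcf1) use complexes that hold the Lif receptor (Lifr) or the oncostatin M receptor (Osmr). The receptors activate Janus kinases and the transcription factor STAT3, and suppressors of cytokine signalling (Socs genes) close the loop. In joints the family is known for its part in inflammation, cartilage matrix turnover and bone remodelling.

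Markers of chondrocytes were present in every library. The summed level of 9 such markers lay between 3676 and 7114 CPM (counts scaled to a common library size) in the naïve libraries, and Col2a1, the type II collagen gene, was the most abundant of them in all 18. Erythroid markers were higher, with 28073 to 38238 CPM in the naïve libraries, as were neutrophil and marrow myeloid markers, with 9893 to 14688 CPM. Skeletal muscle markers had 2504 to 8249 CPM there. The levels given below are thus those of mixed tissue and not of chondrocytes alone. Day 7 contralateral replicate 1 stood apart: its 10 most abundant genes took 42.5% of its counts, its erythroid markers reached 56877 CPM and its chondrocyte markers 12404 CPM. A further 3 libraries, naïve replicate 5, day 1 contralateral replicate 3 and day 1 injured replicate 2, stood apart in the family genes themselves, as described below. For the results that rest most on these libraries, values without them are given too. All libraries were treated as independent samples, so the tests measure the spread between these pools.

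In the naïve libraries the 4 receptor genes had higher mean levels than the 5 ligand genes. Per transcript length, as TPM (transcript abundance corrected for length and summed per gene) over the 6 naïve libraries, Il6st came first with 33.4 ± 7.08 TPM (SD, n = 6) and Lifr second with 25.5 ± 4.29 TPM, and their ranges overlapped. Il11ra1 followed with 8.32 ± 1.30 TPM, with a range that overlapped that of Il6ra at 8.10 ± 0.928 TPM, and Osmr had 3.80 ± 1.30 TPM. The lowest naïve library for Lifr (20.3 TPM) was above the highest for Il11ra1 (9.60 TPM), so that Il6st and Lifr lay apart from the other receptors, while the ranges of Il11ra1 and Osmr met. The 5 ligands were at about 1 TPM or less. Across the wider family this order did not hold, since the ligand subunit Ebi3 (4.73 TPM) lay above Osmr, and the receptors Il27ra (0.743 TPM), Il31ra (0.617 TPM) and Il11ra2 (0.109 TPM) lay below Osm and Clcf1. Osm had 1.16 ± 0.190 TPM, Clcf1 1.04 ± 0.422 TPM and Lif 0.362 ± 0.159 TPM. Il6 (0.307 ± 0.403 TPM) and Il11 (0.255 ± 0.363 TPM) were lowest, with an SD above the mean, and their ranges overlapped that of Lif. The lowest naïve library for Clcf1 (0.757 TPM) was above the highest for Lif (0.590 TPM), while Osm and Clcf1 overlapped.

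**Figure D1:**
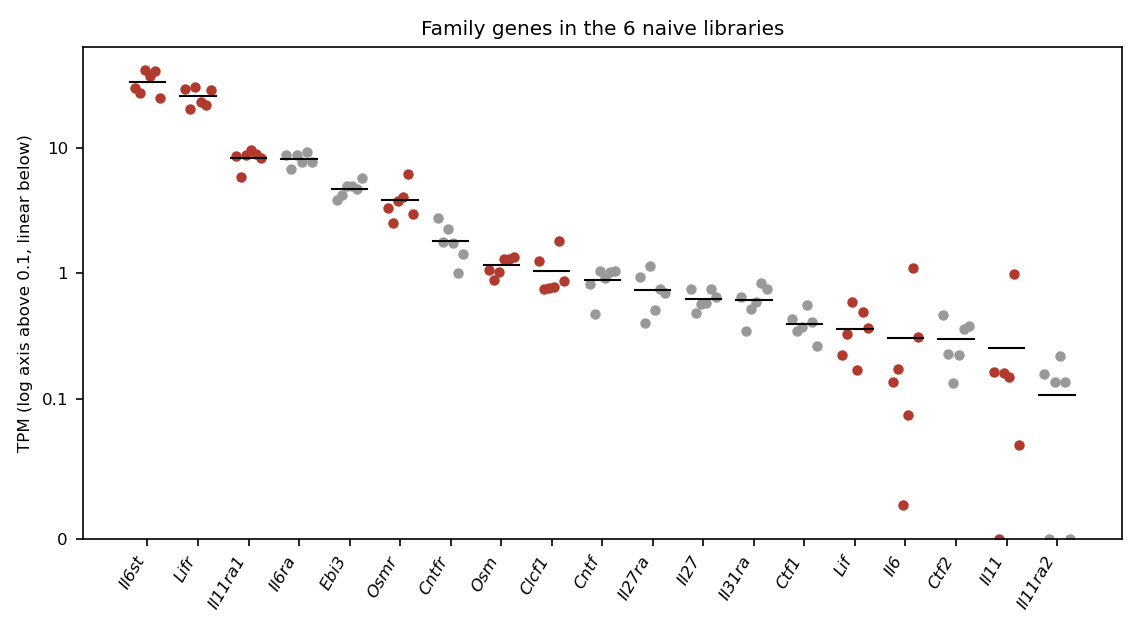
Levels of the interleukin-6 family genes in TPM (log axis above 0.1, linear below) in the 6 naïve libraries, ordered by mean. Points are libraries, the black line is the mean, red marks the 9 genes described and grey the other genes of the family; Il6st and Lifr lie above 20 TPM in every library, and Il6 and Il11 spread most.

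Il6 was at 20 counts or fewer in 15 libraries and at many more in 3. For Il6, the founding member of the family, the naïve libraries had a lowest value of 0.0691 CPM, a median of 0.396 CPM and a highest of 2.03 CPM. Day 1 contralateral replicates 1 to 3 had 0.286, 0.294 and 2.57 CPM, and day 1 injured replicates had 0.420, 3.21 and 0.290 CPM. At day 7 the contralateral replicates had 0.156, 0.134 and 0.372 CPM and the injured replicates 0.500, 0.507 and 0.925 CPM. In counts, the 3 high libraries held 51, 110 and 101 estimated counts, and the 15 others between 2 and 20. They came from 3 different groups, and each was alone in its group.

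Il11, a ligand studied in tissue repair and fibrosis, was high in the same 3 libraries. The naïve libraries had a lowest value of 0 CPM, a median of 0.487 CPM and a highest of 3.18 CPM in replicate 5. Day 1 contralateral replicates had 0.179, 0.515 and 7.55 CPM, and day 1 injured replicates had 0.711, 5.53 and 0.373 CPM. Day 7 contralateral replicates had 0.39, 0.535 and 0.304 CPM, and day 7 injured replicates had 1.59, 2.53 and 3.05 CPM. Thus every day 7 injured library was above every day 7 contralateral library, and also above the naïve and day 1 libraries other than those 3.

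The same libraries were the highest of their groups for Lif and Clcf1, at smaller distance. Lif reached 3.42 CPM in naïve replicate 5, 4.09 CPM in day 1 contralateral replicate 3 and 5.53 CPM in day 1 injured replicate 2, and the other 2 libraries of each day 1 group had 1.25 to 2.33 CPM. Clcf1 reached 5.89, 5.86 and 6.64 CPM in these libraries. Osmr was highest of its group in each of them too (48.3, 41.8 and 45.3 CPM), and Lifr was lowest (197, 193 and 207 CPM). Osm showed no such pattern in naïve mice, as replicate 5 had 5.01 CPM within a naïve range of 3.70 to 5.60 CPM. It was in the middle of its group in day 1 contralateral replicate 3 (4.67 CPM). In day 1 injured replicate 2 it was the highest of its group and of all libraries (5.63 CPM). Il6st was highest of its group in the first 2 of them (354 and 366 CPM) and in the middle of its group in day 1 injured replicate 2 (337 CPM).

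Other genes of the pathway were compared in the same 3 libraries. Of 20 known target genes of glycoprotein 130 and STAT3, 7 (Junb, Fos, Timp1, Saa3, Il4ra, Ccnd1 and Ccl2) were higher in each of these 3 libraries than in any of the 12 others that were not day 7 injured, 1 (Vegfa) was lower and 12 were neither, where 2.61% of all 21262 genes were higher in this sense and 2.85% lower. Of 7 feedback genes 1 was higher, of 9 transducers and 2 sheddases none, and of 11 other family genes none was higher and Cntfr was lower. Among the 9 family genes Lif, Clcf1 and Osmr were higher and Lifr lower, beside Il6 and Il11, by which the libraries were picked. Day 7 injured libraries, left out of these counts, reached 59.6 CPM for Junb, 22.7 for Fos and 62.9 for Ccnd1. They also reached 80.3 CPM for the feedback gene Socs3, 5.41 for Lif and 72.5 for Osmr. Against all 15 other libraries none of these genes was higher in this sense, and Cntfr (lowest 1.90 CPM) was not lower. Socs3, the feedback inhibitor that binds glycoprotein 130, had 47.7, 53.4 and 52.8 CPM in naïve replicate 5, day 1 contralateral replicate 3 and day 1 injured replicate 2, against 10.5 to 27.2 CPM in the 12 others. Among genes picked after their values were seen, Timp1, a metalloproteinase inhibitor, had 94.1, 93.8 and 87.7 CPM against 5.26 to 15.3 CPM, and the chemokine gene Ccl2 had 17.9, 13.3 and 15.1 CPM against 0.322 to 3.13 CPM. These 3 libraries had totals of 22656875, 41794005 and 27495721 estimated counts, so that they include the deepest library and others of medium depth. Their adipocyte markers summed to 214, 229 and 174 CPM against 358 to 732 CPM, whereas their macrophage markers (2563, 2800 and 2351 CPM against 2212 to 3479 CPM) and synovial fibroblast markers (311, 306 and 293 CPM against 281 to 418 CPM) lay within the range of the other 12. Of the 3 libraries, 2 lay below that range in osteoclast (1058, 1119 and 1235 CPM against 1184 to 2304 CPM), osteoblast and osteocyte (568, 530 and 678 CPM against 572 to 1137 CPM) and skeletal muscle markers (2504, 3646 and 2724 CPM against 3002 to 9649 CPM). A single one did so in chondrocyte markers (3918, 3592 and 3285 CPM against 3549 to 12404 CPM) and in neutrophil and marrow myeloid markers (10119, 10277 and 8017 CPM against 8062 to 15832 CPM). The part of tissue composition in this pattern was not tested.

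**Figure D2:**
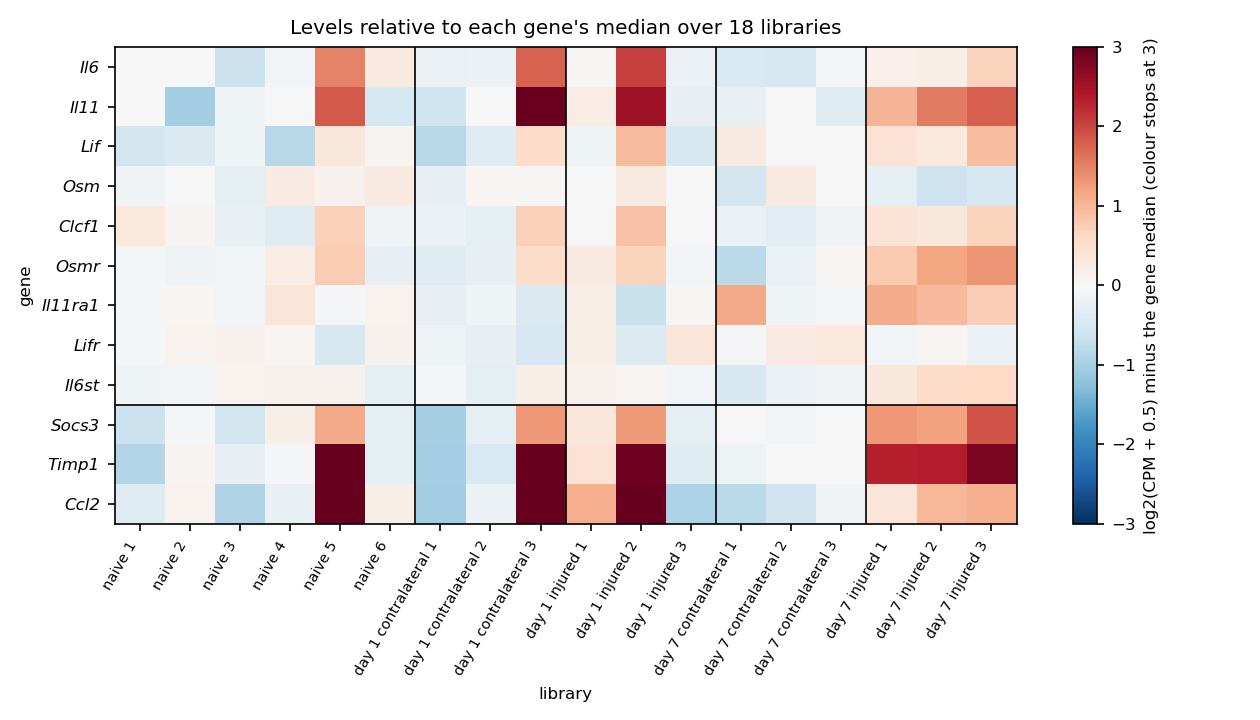
Heat map of log2(CPM + 0.5) minus the median of the gene over 18 libraries (red above, blue below, colour stops at 3) for the 9 family genes and, under the line, Socs3, Timp1 and Ccl2. Naïve 5, day 1 contralateral 3 and day 1 injured 2 are red for Il6, Il11, Socs3, Timp1 and Ccl2, while Il6 stays pale in the 3 day 7 injured libraries.

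Start sites of 7 of the 9 genes (all but Osm and Clcf1) were taken from RefSeq on GRCm38.p6, in 10 windows of 300 bases (250 before and 50 after the start). The letters TGANTCA, the motif of AP-1 factors, occur in 4 of the 10 windows, those of Il6, Il11, Lif and Osmr, and in 7.81% of 32851 windows of all genes. The letters TTCNNNGAA, the core of STAT sites, occur in none of the 10 and in 8.30% of all windows. Each motif equals its own reverse complement, so that 1 search covers both strands, and the letters allow the motifs to overlap. The 250 bases before the start are shown for Il6, Il11 and Lif, the ligands with a window among the 4 (Clcf1 being the other) that were high in the same 3 libraries, with TGANTCA in capitals, at chr5:30012864-30013113 (plus strand) for Il6, chr7:4778142-4778391 (minus strand) for the start of Il11 whose window holds the motif, and chr11:4257318-4257567 (plus strand) for Lif.
Il6: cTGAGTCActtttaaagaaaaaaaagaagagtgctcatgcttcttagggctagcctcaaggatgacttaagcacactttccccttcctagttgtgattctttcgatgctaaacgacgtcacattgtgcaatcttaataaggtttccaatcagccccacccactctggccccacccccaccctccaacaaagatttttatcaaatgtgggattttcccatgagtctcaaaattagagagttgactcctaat
Il11: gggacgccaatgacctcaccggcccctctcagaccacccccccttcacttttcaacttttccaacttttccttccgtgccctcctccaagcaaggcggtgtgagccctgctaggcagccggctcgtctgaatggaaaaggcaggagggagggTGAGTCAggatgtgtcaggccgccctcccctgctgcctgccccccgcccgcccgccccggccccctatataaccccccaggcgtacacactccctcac
Lif: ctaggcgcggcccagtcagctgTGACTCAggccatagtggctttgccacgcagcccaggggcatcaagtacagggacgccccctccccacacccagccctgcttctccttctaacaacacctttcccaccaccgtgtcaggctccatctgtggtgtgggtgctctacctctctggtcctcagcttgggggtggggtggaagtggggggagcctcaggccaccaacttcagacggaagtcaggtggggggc
In these stretches the motif begins 249 bases before the start of Il6, 98 before that of Il11 and 228 before that of Lif. A match is a description of the sequence and shows no bound factor.

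At day 7, against naïve libraries, 2 of the 9 genes were called higher (false discovery rate, FDR, of at most 0.05 and at least 1.5-fold), Osmr and Il11ra1, and none lower, where 10.4% of all 21129 genes tested were called higher and 6.11% lower. Il6st was higher and Osm lower at an FDR below 0.05 but under 1.5-fold. The median log2 fold change of the 9 genes was 0.54, and that of all genes tested was -0.04. All 3 injured libraries were above all 6 naïve libraries for 3 of the 9 genes, which 17.4% of all genes did, and below them for 1, which 10.8% of all genes did. In bulk RNA, more cells of a type and more RNA per cell cannot be told apart.

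Osmr encodes the receptor chain for oncostatin M, and also takes part in the receptor for interleukin-31. The naïve libraries had a lowest value of 23.8 CPM, a median of 27.1 CPM and a highest of 48.3 CPM. The day 7 injured replicates had 49.5, 65.5 and 72.5 CPM, and the day 7 contralateral replicates 16.1, 24.8 and 29.9 CPM. In CPM, injured libraries were thus above every naïve and every contralateral library, although the lowest of them only just passed naïve replicate 5. In TPM the injured libraries (3.88 to 7.38 TPM) overlapped the naïve (2.50 to 6.21 TPM) and the day 7 contralateral ones (1.04 to 3.90 TPM). Osmr rose 2.04-fold against naïve (log2 1.03 ± 0.24 SE, FDR 0.00479) and 2.63-fold against day 7 contralateral libraries (log2 1.40 ± 0.30, FDR 0.00294; 1.21, FDR 0.0154, without contralateral replicate 1). Without naïve replicate 5 the first value was a log2 of 1.20 ± 0.21. The day 1 injured replicates had 34.2, 45.3 and 27 CPM, and the rise from day 1 to day 7 injured libraries was 1.78-fold (log2 0.83 ± 0.29, FDR 0.0459), or log2 1.03 (FDR 0.035) without day 1 injured replicate 2. The call between the days was lost under 7 of 15 alternatives, among them an offset for the average transcript length (FDR 0.119).

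Il11ra1 encodes the interleukin-11 receptor. The naïve libraries had a lowest value of 20.9 CPM, a median of 22.4 CPM and a highest of 28.9 CPM, and the day 7 injured replicates had 48.9, 44.1 and 37.7 CPM with no overlap. Il11ra1 rose 1.89-fold against naïve (log2 0.92 ± 0.15, FDR 0.000366) and 2.15-fold against day 1 injured libraries (log2 1.10 ± 0.18, FDR 0.000621), which had 25.2, 13.8 and 22.8 CPM. Without day 1 injured replicate 2 the latter was log2 0.87 (FDR 0.00136). In TPM the day 7 injured libraries (11.3 to 15.9 TPM) overlapped the day 1 injured ones (6.72 to 13.3 TPM). They lay above the naïve ones (5.83 to 9.60 TPM). Against the contralateral knees at day 7 the difference was log2 0.52 ± 0.27 (FDR 0.202). There, replicate 1 had 49.6 CPM, above all injured libraries, and replicates 2 and 3 had 20.4 and 21.7 CPM. Without contralateral replicate 1 the log2 fold change was 1.07 ± 0.20 (FDR 0.00147) and the gene was called. It was called under 2 of 16 alternatives, among them this one. Il11ra1 shares 57.7% of its 31-base words with Gm13305 and 19.3% with Il11ra2, which had on average 5.18 and 5.64 counts per library, and the value against naïve was log2 0.90 ± 0.16 (FDR 0.000563) when the 3 genes were summed.

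Il6st, the shared chain, had the highest naïve mean of the 9 per transcript length. The naïve libraries had a lowest value of 263 CPM, a median of 326 CPM and a highest of 354 CPM. The day 7 injured replicates had 410, 478 and 489 CPM, above all 15 other libraries, and the contralateral replicates 232, 281 and 299 CPM. Il6st rose 1.70-fold against the contralateral knees (log2 0.76 ± 0.14, FDR 0.000918), and without contralateral replicate 1 the value was log2 0.68 (FDR 0.00407). Against naïve libraries it was 1.45-fold higher (log2 0.54 ± 0.12, FDR 0.0026, or 0.57, FDR 0.00235, without naïve replicate 5) and against day 1 injured libraries 1.40-fold higher (log2 0.49 ± 0.14, FDR 0.0175), both under the fold threshold. With protein-coding transcripts alone the FDR between the days was 0.0838. On the deposited TPM, which are not corrected for composition, Il6st had 32.5 to 41.4 TPM in the day 7 injured libraries and 24.8 to 41.0 TPM in the naïve ones, so that the groups overlapped. In the same unit the means were lower at day 7 than at day 1 in injured libraries both for Il6st (38.3 and 46.6 TPM) and Osmr (5.79 and 6.59 TPM) and for Jak1 (29.2 and 50.1 TPM) and Stat3 (30.5 and 42.7 TPM). In CPM all 4 of these means were higher at day 7. Lifr, the chain for Lif, was not called in any of these comparisons. Its naïve libraries had a lowest value of 197 CPM, a median of 291 CPM and a highest of 298 CPM, and the day 7 injured replicates had 259, 285 and 241 CPM (log2 -0.04 ± 0.16, FDR 0.873, or -0.12, FDR 0.539, without naïve replicate 5). In TPM its day 7 injured libraries (16.8 to 21.2 TPM) lay below the day 1 injured ones (28.3 to 58.5 TPM). They overlapped the naïve ones (20.3 to 30.1 TPM).

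**Figure D3:**
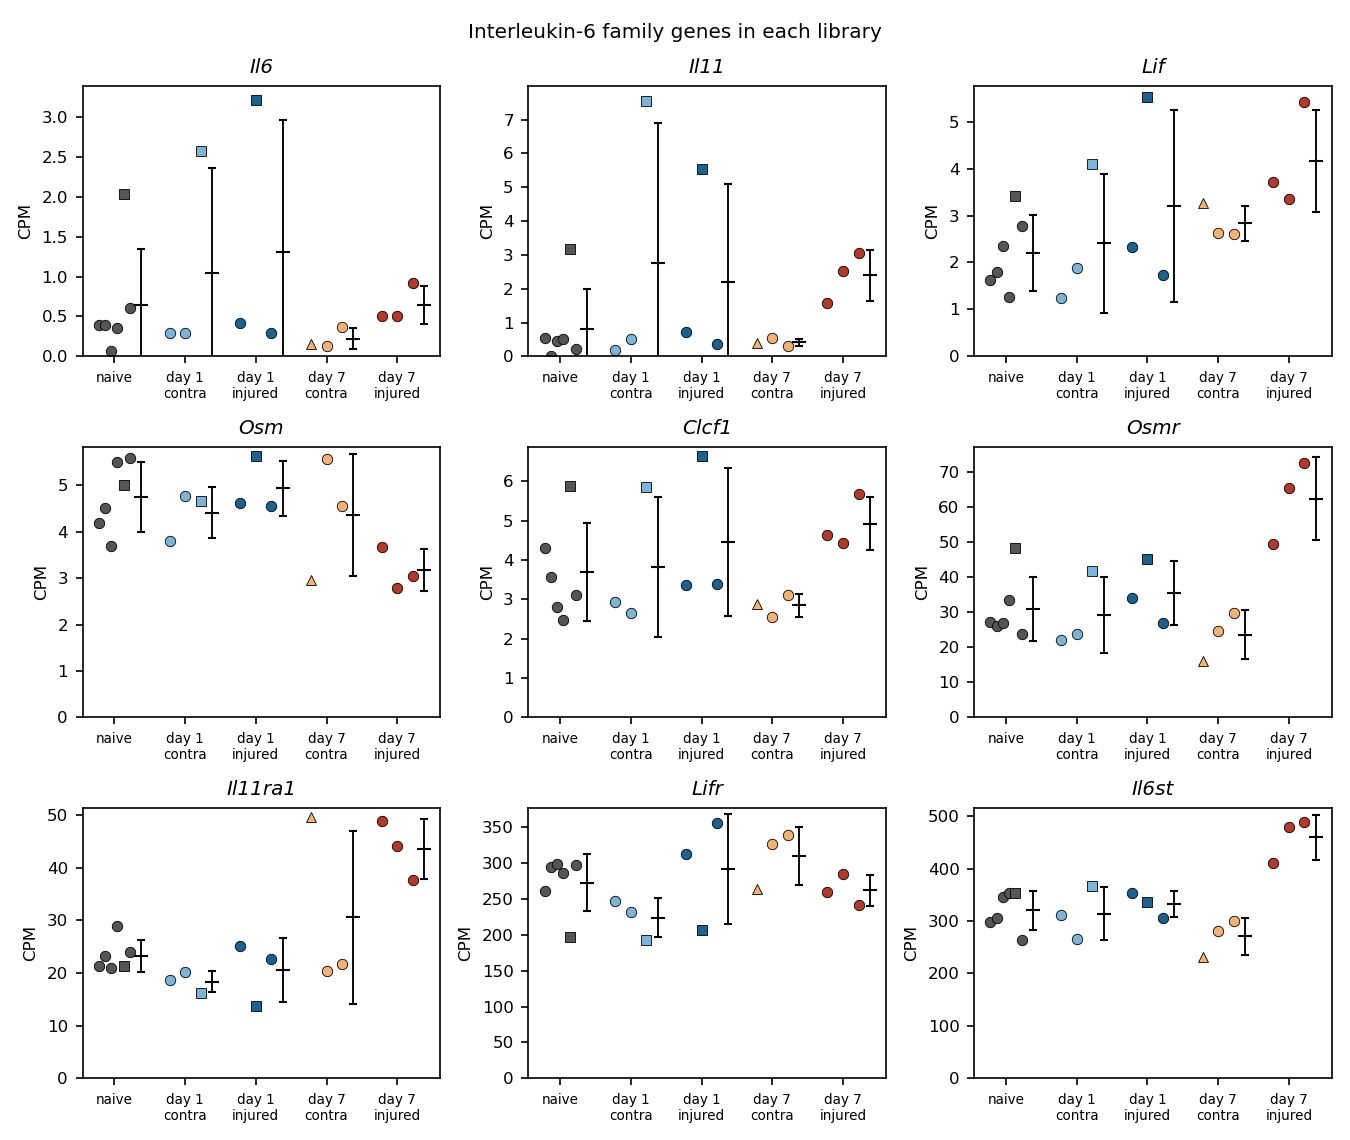
CPM of the 9 genes in each of the 18 libraries by group (linear axes from 0), with the mean and SD of each group in black beside the points (lower ends under 0 not drawn). Squares are naïve replicate 5, day 1 contralateral replicate 3 and day 1 injured replicate 2, and the triangle is day 7 contralateral replicate 1; the day 7 injured libraries lie above all naïve libraries for Osmr, Il11ra1 and Il6st and below them for Osm.

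Among the ligands, Osm was lower in injured cartilage at day 7. The naïve libraries had a lowest value of 3.70 CPM, a median of 4.76 CPM and a highest of 5.60 CPM, and the injured replicates had 3.68, 2.79 and 3.05 CPM, below all of them. The difference was 1.48-fold (log2 -0.56 ± 0.16, FDR 0.0174), just under the fold threshold. Under 5 of 18 alternatives it was called, and over all 18 the FDR ranged from 0.0044 to 0.0823. By FDR alone 18.7% of all genes were called higher than in naïve libraries and 11% lower, and 4 of the 9 family genes were called in either direction. Against day 1 injured libraries (4.62, 5.63 and 4.56 CPM) Osm fell 1.53-fold (log2 -0.62 ± 0.18, FDR 0.0237). This call was lost under 5 of 15 alternatives, among them leaving out day 1 injured replicate 2 (FDR 0.0821) or day 7 injured replicate 2 (FDR 0.0892) or 3 (FDR 0.0761). Oncostatin M is made mainly by leukocytes, and the neutrophil and marrow myeloid markers summed to 9893 to 14688 CPM in naïve libraries and to 10637, 8185 and 7758 CPM in the injured ones. In day 1 injured libraries, against which Osm was called, they summed to 12994, 8017 and 8062 CPM, and none of the 8 markers was called between the days (median log2 -0.04). Macrophage markers summed to 2833, 2556 and 2279 CPM in the day 7 injured libraries and to 2212 to 2938 CPM in naïve ones. The part of these cells in the level of Osm was not tested. Against the contralateral replicates (2.96, 5.57 and 4.56 CPM) the log2 fold change was -0.47 ± 0.22 (FDR 0.147), and without replicate 1 it was -0.64 ± 0.20 (FDR 0.0344). Osm and its receptor gene thus had day 7 differences of opposite sign.

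No other ligand was called at day 7 with all libraries in the fit, apart from Lif with a transcript length offset, given below. Il11 had the largest difference and the largest error, with log2 1.51 ± 1.09 against naïve (FDR 0.315) and 2.54 ± 1.38 against contralateral libraries (FDR 0.224). For Lif, the injured replicates had 3.72, 3.36 and 5.41 CPM, the contralateral ones 3.27, 2.63 and 2.60 CPM and the naïve libraries 1.26 to 3.42 CPM, with log2 0.93 ± 0.41 against naïve (FDR 0.0982). For Clcf1, the injured replicates had 4.63, 4.44 and 5.69 CPM, the contralateral ones 2.88, 2.54 and 3.11 CPM and the naïve libraries 2.49 to 5.89 CPM, with log2 0.44 ± 0.31 against naïve (FDR 0.314), or 2.24 (FDR 0.102) with protein-coding transcripts alone. Il6 had log2 0.02 ± 1.01 against naïve (FDR 0.988), an error that leaves its direction undetermined. With an offset for the average transcript length, Lif was called against naïve (log2 1.27, FDR 0.0461). Injured libraries were above contralateral ones without overlap for 6 of the 9 genes, including Il11, Il6, Lif and Clcf1, which 18.6% of all 21262 genes were.

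The large errors of the ligands moved with the 3 libraries described above. With these 3 left out, an alternative chosen after their values were seen and on the ligand genes themselves, 5 genes were called higher against naïve libraries, where 10.6% of the 21373 genes of that fit were called higher and 6.89% lower. They were Il11 (log2 2.69 ± 0.48, FDR 0.000934), Lif (1.08 ± 0.26, FDR 0.00674) and Clcf1 (0.61 ± 0.18, FDR 0.020) beside Osmr (1.18 ± 0.13) and Il11ra1 (0.88 ± 0.11). Against contralateral libraries Il11 (2.54 ± 0.57, FDR 0.00553) and Clcf1 (0.79 ± 0.20, FDR 0.0127) joined Il6st and Osmr, where 9.61% of all genes were called higher and 3.12% lower. The same 4 genes were called when the fit held only the 6 day 7 libraries, none of which is among the 3, where 9.36% of 18166 genes were called higher and 1.54% lower. Because the libraries were picked by Il6 and Il11, the values without them describe the remaining libraries and are no independent test in any comparison. This holds against contralateral libraries too, since all groups of a fit share 1 estimate of the spread. There the log2 fold change of Il11 was 2.54 with and without the 3 libraries, and its error was 1.38 with them and 0.57 without.

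**Figure D4:**
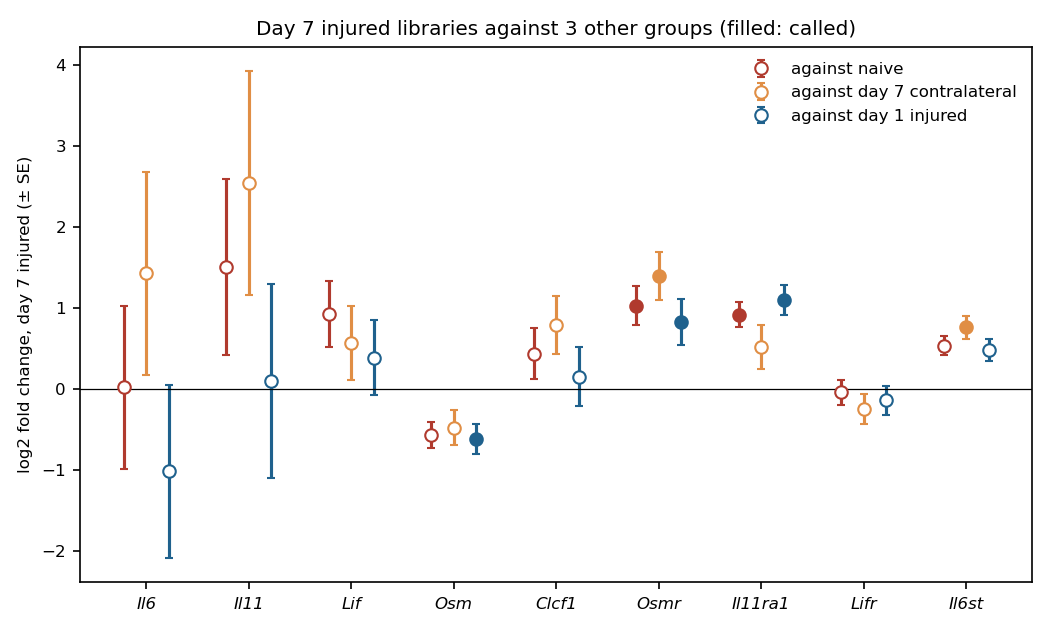
Log2 fold change (± SE, edgeR) of the 9 genes in day 7 injured libraries against naïve, day 7 contralateral and day 1 injured libraries. Filled points were called (FDR of at most 0.05 and at least 1.5-fold): Osmr in all 3 comparisons, Il11ra1 in 2, and Il6st and Osm in 1 each, while Il6 and Il11 have the widest errors.

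Against the contralateral knees at day 7, 2 of the 9 genes were called higher and none lower, where 9.33% of all 21262 genes were called higher and 3.23% lower. Against day 1 injured libraries 2 were called higher and 1 lower, where 9.04% of 21129 genes were called higher and 6.38% lower. These comparisons share the day 7 injured libraries, so that their calls do not support each other.

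At day 1 no member of the family was called. Injured libraries were compared with naïve (log2 fold changes of the 9 genes from -0.18 to 1.40, lowest FDR 0.987) and with contralateral libraries (-0.35 to 0.39, lowest FDR 0.755), and contralateral libraries with naïve ones at day 1 (-0.34 to 1.75, lowest FDR 1.00) and at day 7 (-1.42 to 0.38, lowest FDR 0.359). In each of the 4 comparisons 0% of all genes were called higher and 0% lower with edgeR, and none of the 9 genes had an unadjusted p under 0.05. Over all genes, 959, 1383, 554 and 3220 had an unadjusted p under 0.05 in the same order. DESeq2 called 15, 0, 2 and 8 genes there in either direction and limma-voom none, and neither called any of the 9. Between day 1 injured and contralateral libraries Lif had the largest of these fold changes (log2 0.39). In the other comparisons the largest belonged to Il11 or Il6, whose day 1 means, where they enter, rest on a single library in each group.

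The injury effect at day 7 was compared with that at day 1 as a difference of differences. None of the 9 genes passed an FDR of 0.05, where 3.72% of all genes were higher at day 7 and 0.287% lower, and 4 of the 9 had an unadjusted p under 0.05, as did 16.3% of all genes. Il6st came closest, with log2 0.68 ± 0.20 (FDR 0.0672), and DESeq2 called it (FDR 0.0248), where it called 5.13% of all genes higher and 0.923% lower. Without the 3 libraries high in Il6 and Il11, Lifr was called lower (log2 -0.72 ± 0.18, FDR 0.045), where 2.4% of all genes were called higher and 0.371% lower. Osmr had log2 1.12 ± 0.41 (FDR 0.164), Lifr -0.62 ± 0.26 (FDR 0.226) and Osm -0.63 ± 0.30 (FDR 0.307). Between the injured libraries themselves, Il11ra1 and Osmr were called higher at day 7 than at day 1, as given above, and this difference is not set against the contralateral knees.

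A further 11 genes of the family were listed, of which 10 were tested against naïve at day 7, and Il31, at 0 counts in all libraries, was not. None of the 10 was called higher and 2 were called lower, where 10.4% of all genes were called higher and 6.11% lower. Il27, a subunit of interleukin-27, fell (log2 -0.98 ± 0.28, FDR 0.0154) at 15 to 30 estimated counts per naïve and 7 to 15 per injured library, and so did Il31ra, the interleukin-31 receptor chain that pairs with Osmr (log2 -0.67 ± 0.19, FDR 0.0161). Il6ra, the interleukin-6 receptor, was lower at an FDR below 0.05 and under the fold threshold, with 62.0, 63.7 and 60.4 CPM in injured and 70.2 to 80.0 CPM in naïve libraries (log2 -0.26 ± 0.08, FDR 0.024). Cntfr, the receptor for ciliary neurotrophic factor and Clcf1, had log2 -0.64 ± 0.37 (FDR 0.209).

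Transducers and feedback genes are given in turn, and the difference between the lists was not tested. None of the 9 transducers was called against naïve at day 7. The kinase gene Jak1 had log2 0.10 ± 0.07 (FDR 0.302), and Stat3, with 192, 184 and 219 CPM in injured and 127 to 166 CPM in naïve libraries, was 1.38-fold higher (log2 0.46 ± 0.11, FDR 0.00463), under the fold threshold. Of 7 feedback and negative regulators 3 were called higher and none lower, where 10.4% of all genes were called higher. By FDR alone 4 of the 7 were higher and 1 lower, where 18.7% of all genes were higher and 11% lower. The gene that was lower was Ptpn6, a phosphatase gene, under the fold threshold (log2 -0.30 ± 0.09, FDR 0.0236). Socs2 rose by log2 1.27 ± 0.14 (FDR 6.83e-06), from a naïve range of 9.48 to 12.8 CPM to 23.7, 24.3 and 30.2 CPM. Socs1 rose by log2 1.14 ± 0.26 (FDR 0.00372), to 9.85, 10.1 and 9.39 CPM from a naïve range of 3.41 to 6.70 CPM. Socs3 rose by log2 1.43 ± 0.47 (FDR 0.0329), to 53.7, 49.9 and 80.3 CPM, only just above the 47.7 CPM of naïve replicate 5. The call of Socs3 was lost when any of 7 of the 9 libraries compared was left out (highest FDR 0.141), and held without naïve replicate 5 (log2 1.78 ± 0.43, FDR 0.00667). Against day 7 contralateral libraries 1 of the 7, Socs2, was called higher and none lower, where 9.33% of all genes were called higher and 3.23% lower. Socs1 and Socs3 were not called there, although the log2 fold change of Socs3 was 1.30 to 1.68 under the alternatives. Socs2 was the sole gene of these pathway lists whose injury effect differed between day 7 and day 1 (log2 1.04 ± 0.24, FDR 0.0182). That call was lost under 5 of 20 alternatives (highest FDR 0.322, with a length offset), 3 of them without day 1 contralateral replicate 3 (FDR 0.0615), day 1 injured replicate 1 (FDR 0.0581) or day 7 injured replicate 3 (FDR 0.0783).

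Of 20 known target genes of glycoprotein 130 and STAT3, 2 were called higher and none lower, a share that did not exceed the 10.4% of all genes. They were Tnfsf11, the osteoclast differentiation factor RANKL (log2 1.30 ± 0.19, FDR 0.000136), and Mmp13, the collagenase of cartilage (log2 0.88 ± 0.22, FDR 0.00774). The median log2 fold change was 0.25 over the 20 targets, 0.44 over the feedback genes, -0.08 over the transducers and -0.47 over the 10 other family genes tested, against -0.04 over all genes. Neither of the 2 receptor sheddase genes was called, and Adam17, which cleaves the interleukin-6 receptor, had log2 0.42 ± 0.08 (FDR 0.0011). Against day 7 contralateral libraries 1 of the 20 targets was called higher (Tnfsf11) and 1 lower (Bcl2l1), and Mmp13 was not called. There, 9.33% of all genes were called higher and 3.23% lower.

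**Figure D5:**
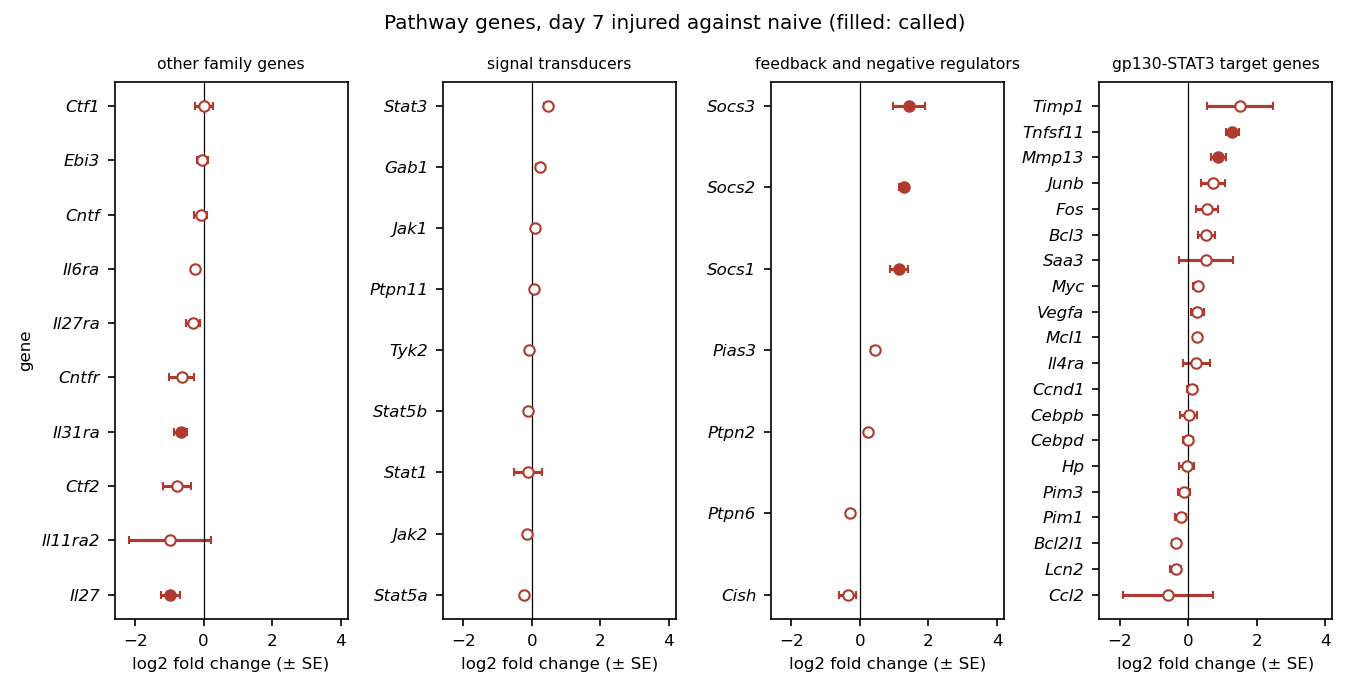
Log2 fold change (± SE, edgeR) of pathway genes in day 7 injured against naïve libraries, in 4 lists, with called genes filled. The 3 called Socs genes lie between 1.14 and 1.43, and the transducers from -0.23 to 0.46, the last being Stat3.

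Markers of cell types were compared at day 7 against naïve, where 10.4% of all genes were called higher and 6.11% lower. Of 7 synovial fibroblast markers 3 were called higher, Thy1 (log2 1.91 ± 0.16), Pdgfra (1.32 ± 0.13) and Cd34 (0.75 ± 0.15). The other 4 were not called, the lowest of them at log2 -0.25. The sum of the 7 was 287 to 398 CPM in naïve libraries and 518, 607 and 619 CPM in injured ones. Pdgfra was the most abundant in 17 of 18 libraries, and no marker was at 0. Of 9 chondrocyte markers 3 were higher (Sox9, Acan and Comp) and 1 lower (Chad), and their sum was 6261, 7092 and 6937 CPM in injured libraries. Of 6 endothelial markers 3 were higher, with a sum of 458 to 544 CPM in naïve and 564, 570 and 635 CPM in injured libraries, with none at 0. Vwf, the most abundant of them, had 218 to 292 CPM in naïve and 208, 188 and 190 CPM in injured libraries (log2 -0.37 ± 0.12, FDR 0.0271). Of 7 erythroid markers 4 were lower, and their sum was 25319, 21574 and 15372 CPM in injured libraries. Of 8 neutrophil and marrow myeloid markers 2 were lower, of 5 adipocyte markers 2, of 4 B cell markers 1, and of 8 osteoblast and osteocyte markers 1 was higher and 1 lower. Of 7 osteoclast markers 1 was higher, and none of 9 macrophage, 5 T cell and 5 muscle markers was called. The part of these shifts in the levels of Osmr, Il11ra1 and Il6st was not tested.

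The genes whose levels ran closest to the called receptors over the 18 libraries were found by the root mean square difference of centred log2 CPM among 21262 genes. For Osmr they were Atp8b1 (0.124) and Cttnbp2nl (0.130), where Osmr itself varied by 0.559 around its mean. For Il11ra1 they were Pltp (0.161) and Cox4i2 (0.166), where Il11ra1 varied by 0.509. These are values on the log2 scale and say that the curves were alike in these libraries.

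By the GENCODE annotation of GRCm38, Il6 lies at chr5:30013114-30019981, Il11 at chr7:4772373-4782859, Clcf1 at chr19:4214238-4223490, Il6st at chr13:112464070-112510086 and Il11ra1 at chr4:41699989-41769474. Osm (chr11:4236420-4241026) and Lif (chr11:4257557-4272514) are neighbours 16.5 kb apart on the plus strand, and at day 7 against naïve their log2 fold changes were -0.56 for Osm and 0.93 for Lif, neither of them called. Osmr (chr15:6813577-6874969, minus strand) and Lifr (chr15:7090614-7197489, plus strand) lie 216 kb apart, and the first rose while the second was not called. The locus of Il11ra1 overlaps Galt on the same strand and 5 genes on the other strand. Nearly all counts were assigned to protein-coding transcripts for Il6, Il11, Osm, Lif, Il6st and Lifr (97.5% to 100%), 92.4% for Il11ra1 and 89.4% for Osmr. For Clcf1 30.1% were, with 36.8% on a retained intron. Its TPM and its value with protein-coding transcripts alone thus depend on how reads were divided between transcripts.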

How the data were processed

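Cartilage caps were sequenced as total RNA (TruSeq stranded, ribosomal RNA removed). The authors trimmed reads with Trimmomatic and quantified transcripts with Kallisto, and deposited estimated counts and TPM for 137436 transcripts per library. The submitters' processing notes also name DESeq2 and a human build, although the identifiers are those of mouse. The deposited TPM are not corrected for RNA composition.

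Estimated counts were summed over 135107 transcripts matched to GENCODE genes of GRCm38 and rounded. The 2329 unmatched transcripts held 0.667% to 3.90% of the counts of a library and were left out. CPM used TMM factors over 18 libraries. Tests were edgeR 4.0.16 quasi-likelihood tests (R 4.3.3) after filterByExpr, on 15 libraries (21129 genes) or, where day 7 contralateral libraries entered, on 18 (21262 genes), two-sided, with Benjamini-Hochberg FDR over all genes. Genes were called at an FDR up to 0.05 with a change of 1.5-fold or more, and by the FDR alone for the difference of differences. The ± after a log2 fold change is its standard error, taken as its size divided by the square root of the F statistic. The scripts were tested on simulated data.

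The 9 genes, the pathway and marker lists and the tests were chosen with earlier results of these data known. Named by rule were the 9 genes, listed genes called at day 7 against naïve, Il6ra, Cntfr, Jak1, Stat3 and Socs3, and the 2 genes most like each called member. Further listed genes, among them Ebi3, Timp1, Ccl2, Ptpn6, Adam17, Bcl2l1 and Vwf, were named outside this rule, with their values seen. Alternatives were DESeq2 1.42.0 tests and size factors, limma 3.58.1 (voom), no filter, a transcript length offset, protein-coding transcripts alone, FDR alone, other libraries in the fit and leaving out each library. Leaving out the 3 libraries high in Il6 and Il11 was added after seeing the data. The study removed 1 library, which it does not name. It accounted for libraries of the same mouse pool by a correlation in limma (duplicateCorrelation), whereas here all libraries were treated as independent, since the labels used do not give the pools. A gene of the pathway lists is not reported here and was left out of their counts.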

Additional observations from a re-analysis of the deposited data

Results flagged for a closer look

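Among the 57 family and pathway genes with counts in naïve libraries, 12 had 1 naïve library apart from the other 5, by a gap that exceeded Dixon's 95% critical value for 6 samples. In 11 of them it was replicate 5, which was the highest for Il6 (2.03 CPM), Il11 (3.18 CPM), Socs3 (47.7 CPM), Bcl3 (16.9 CPM), Junb (49.6 CPM), Timp1 (94.1 CPM), Saa3 (4.66 CPM), Il4ra (123 CPM), Ccnd1 (68.4 CPM) and Ccl2 (17.9 CPM), and the lowest for Lifr (197 CPM). For Ctf1 it was replicate 4 (1.33 CPM). Chance sets apart about 1 in 20 such groups, and the genes are not independent of each other. Groups of 3 libraries were not checked in this way.

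The injury effect differed between day 7 and day 1, by the test of the difference of differences, for 8 genes of the pathway and marker lists and for none of the 9 family genes. Of all genes, 3.72% were called higher at day 7 by this test and 0.287% lower. The effect was larger at day 7 for Socs2 (log2 1.04, lost under 5 of 20 alternatives), the fibroblast markers Thy1 (1.75) and Pdgfra (0.90), the chondrocyte markers Sox9 (1.44) and Acan (1.31) and the endothelial marker Pecam1 (0.74). It was lower at day 7 for the osteocyte gene Sost (-1.85) and the osteoblast gene Sp7 (-0.90). Among the 8 genes, Acan (FDR 0.0463), Sp7 (FDR 0.0422) and Sost (FDR 0.0386) lay closest to the threshold.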

How the results depend on the processing

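No paired analysis was possible because the labels do not say which injured, contralateral or naïve libraries share mice. Against naïve at day 7, 2 of the 9 genes were called, 4 by FDR alone (18.7% of all genes higher and 11% lower), 5 without the 3 libraries high in Il6 and Il11 (chosen after seeing the data), and 2 to 4 when single libraries were left out (12.1% to 17.3% of all genes in either direction), with 4 without day 7 injured replicate 1. Against day 7 contralateral libraries 2 were called, 4 with only the libraries compared in the fit, 4 without the 3 libraries, and 2 to 4 with single libraries left out (8.19% to 13.7% of all genes), with 4 without contralateral replicate 1. Against day 1 injured libraries 3 were called, and 1 to 3 with single libraries left out (11.4% to 13.4% of all genes), where Il11ra1 alone was called without day 7 injured replicate 2 or 3. For the difference of differences 0 were called, 1 by DESeq2 (Il6st; 5.13% of all genes higher and 0.923% lower), 1 without the 3 libraries (Lifr; 2.4% higher and 0.371% lower), and 0 to 1 with single libraries left out (1.86% to 4.87% of all genes), where Il6st was called without day 1 contralateral replicate 2 or day 7 injured replicate 1. The cause of these changes was not tested. The log2 fold change of Il6 against naïve at day 7 turned to -0.092 with protein-coding transcripts alone and ranged from -0.34 to 0.86 with single libraries left out, and that of Lifr from -0.12 to 0.020. Osmr and Il11ra1 were called against naïve under all alternatives run (log2 0.91 to 1.20 and 0.82 to 1.02), as were Osmr and Il6st against contralateral libraries (1.15 to 1.59 and 0.68 to 0.84). Il6 and Il11 had 2 to 20 and 0 to 66 estimated counts in 15 libraries, and how small a change could be detected at this depth was not tested.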
